A study of Mus musculus with 13 samples.

Results

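The 6 genes described here encode a peptide ligand and cell surface receptors of 3 signaling families: *Edn1* (endothelin-1), *P2ry2* and *P2ry6* (nucleotide receptors), *Adora2b* (an adenosine receptor), and *F2r* and *F2rl1* (protease-activated receptors). They were selected by name from these families with earlier results of these data known, and are not all of the family genes that the table lists. They make up 6 of its 13222 genes, and all 6 passed the filter on low reads that left 12319 genes for testing. Bulk RNA was sequenced from 4T1-Thy1.1 cells, a mouse mammary carcinoma line that carries a Thy1.1 transgene, to compare the response to doxorubicin (DOX, a DNA-damaging chemotherapy drug) with and without the cytokine IL-17A. Wells received no treatment (control, 3 libraries: replicates 1, 3 and 5), 200 ng/mL DOX (4 libraries: replicates 1 to 4), 200 ng/mL DOX with 25 ng/mL recombinant mouse IL-17A (DOX+IL-17A, 3 libraries: replicates 2, 3 and 5) or 25 ng/mL IL-17A alone (3 libraries: replicates 2, 3 and 5), each for 48 hours. Reads came from the 3' ends of polyadenylated RNA, and the normalized value of a gene is the authors' signal, its reads scaled to an equal TMM-adjusted library size. Reads on listed genes ranged from 4445592 in DOX+IL-17A 2 to 16930600 in control 3, and 3 reads, used as the detection floor, correspond to values between 0.183 and 0.613.

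Endothelin-1, extracellular nucleotides, adenosine and proteases all act on G protein-coupled receptors, most of them by way of phospholipase C and intracellular calcium, and A2B adenosine receptors mainly by way of cyclic AMP. Cells release nucleotides when stressed or dying, ectoenzymes turn them into adenosine, and proteases such as thrombin and matriptase unmask a tethered ligand on their receptors. In carcinomas these receptors are known for roles in proliferation, migration and inflammation.

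The cell type of the libraries was checked first. Of 11 mammary epithelial and carcinoma markers 10 were listed, the most abundant being *Krt7*, and their summed value was 1993 to 2314 in control, 1041 to 1108 with DOX, 884 to 1153 with DOX+IL-17A and 1759 to 2113 with IL-17A. Of 7 endothelial markers only *Tie1* was listed, and *Pecam1*, *Cdh5*, *Kdr*, *Tek*, *Vwf* and *Emcn* were not analysed here. *Tie1* was at 0.846, 0.670 and 0.472 in control, at 1.85, 2.52, 2.80 and 3.58 with DOX, at 1.64, 1.99 and 2.50 with DOX+IL-17A, and at 0.113, 0.472 and 0.0820 with IL-17A. The 8 skeletal muscle markers, led by *Myh4*, summed to 236 in DOX 1, to 33.3 in control 1, to 27.6 in DOX 2 and to between 3.85 and 12.7 in the 10 other libraries. Of 7 red blood cell markers 3 were listed, led by *Hba-a2*, and summed to 66.5 in DOX 1, to 14.4 in control 1 and to between 0 and 7.19 elsewhere. DOX 1 and control 1 thus carried more muscle and red blood cell transcripts than the other libraries, and for the genes named below, a call against control that was lost without both is given as such.

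The remaining marker lists also varied between libraries. Of 8 leukocyte markers 5 were listed, led by *Csf1r*, with sums of 20.1 to 21.3 in control, 27.4 to 63.8 with DOX, 16.7 to 25.2 with DOX+IL-17A and 11.9 to 16.6 with IL-17A, and *Ptprc* was between 0 and 3.57. Of 8 fibroblast and mural markers 5 were listed, led by *Col1a1*, and the sum was 111 in control 1 and between 25.3 and 72.1 elsewhere. Of 5 platelet markers 2 were listed, led by *Ppbp*, and the sum was 2.37 to 5.72 in control, 5.19 to 16.2 with DOX, 7.37 to 13.7 with DOX+IL-17A and 6.13 to 7.63 with IL-17A.

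Differences were tested with limma on log2(normalized value + 1) in a single fit of all 13 libraries, with p-values adjusted by the Benjamini-Hochberg method over the 12319 tested genes. Calls needed an adjusted p below 0.05 together with more than a 2-fold change. Fold changes on this scale are understated for genes with low values, because of the pseudocount of 1. Of the 6 genes, 1 (*Edn1*) was called as higher with DOX than in control, where 9.15% of all tested genes were called as higher. With DOX+IL-17A, 4 of the 6 genes (*Edn1*, *P2ry2*, *P2ry6* and *Adora2b*) were called as higher than in control, against a background of 6.95%. Against control, neither comparison had a member called as lower. Over all tested genes the split of calls depended on the scaling: with DOX 1127 were higher and 761 lower (59.7% higher) and 1516 and 488 (75.6%) under library size scaling, with DOX+IL-17A 856 and 733 (53.9%) became 1227 and 517 (70.4%), and against IL-17A 606 and 606 (50%) became 1017 and 381 (72.7%). Library size scaling raised the median log2 fold change over all genes from 0.09 to 0.24 with DOX, from 0.04 to 0.20 with DOX+IL-17A and from 0.02 to 0.22 in DOX+IL-17A against IL-17A.

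**Figure D1:**
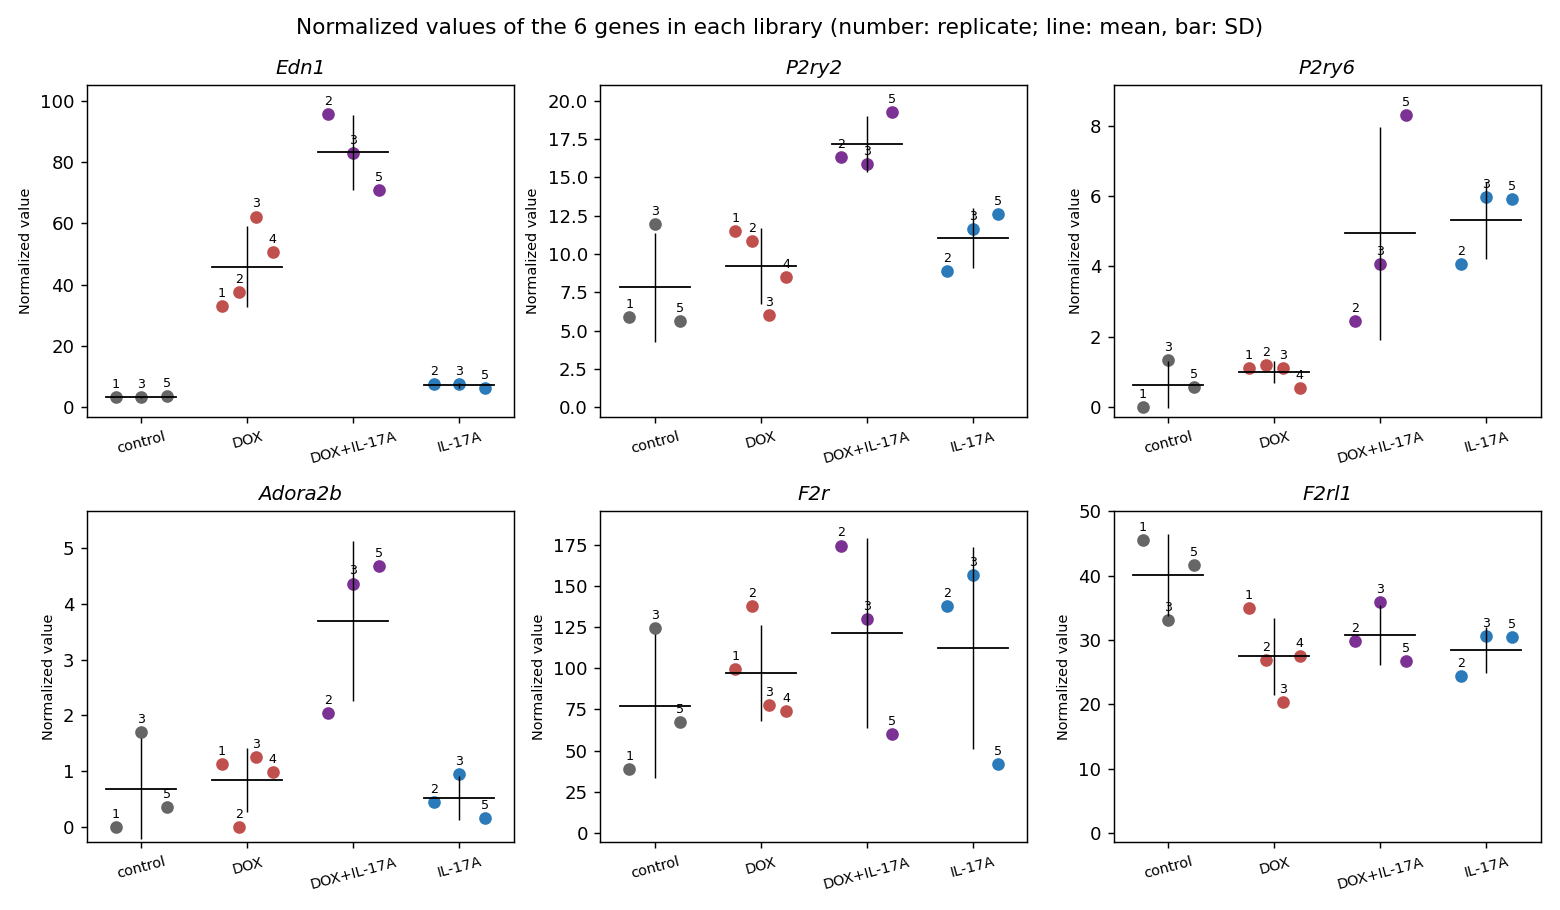
Normalized value (linear axis) of the 6 genes in the 13 libraries, with points numbered by replicate, the mean of each group as a line and the SD as a bar. *Edn1* was between 33.1 and 62.2 with DOX and between 71.0 and 95.5 with DOX+IL-17A, against 3.21 to 3.54 in control, while the 4 groups of *F2r* overlapped.

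*Edn1* encodes the precursor of endothelin-1, a peptide best known as a vasoconstrictor and made by endothelial and many epithelial cells. It was at 3.21, 3.23 and 3.54 in control replicates 1, 3 and 5, from 19, 53 and 30 reads. It was at 33.1, 37.6, 62.2 and 50.8 in DOX replicates 1 to 4. It was at 95.5, 82.8 and 71.0 in DOX+IL-17A replicates 2, 3 and 5, and at 7.55, 7.70 and 6.15 in IL-17A replicates 2, 3 and 5. The 4 groups did not overlap with each other: control libraries were lowest, then IL-17A, DOX and DOX+IL-17A. Among genes tested, 18.5% had DOX libraries wholly above control, 3.17% had IL-17A libraries wholly above control, and 4.66% had DOX+IL-17A libraries wholly above DOX.

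The mean of *Edn1* was 45.9 ± 13.2 (SD, n = 4) with DOX and 3.33 ± 0.182 (SD, n = 3) in control, a 13.8-fold difference of means. Its log2 fold change was 3.40 (SE 0.26, adjusted p = 1.9e-06, limma), higher in 4 of 4 DOX libraries than in each control library. With DOX+IL-17A the mean was 83.1 ± 12.3 (SD, n = 3), 25.0-fold that of control, and the log2 fold change was 4.27 (SE 0.28, adjusted p = 6.1e-07). With control 1 and DOX 1 both left out, a setting added after the data were seen, the log2 fold change with DOX was 3.52 (adjusted p = 6e-06), and over single libraries left out it ranged from 3.24 to 3.54 (adjusted p from 2.2e-06 to 3e-05). *Edn1* rose as well in DOX+IL-17A relative to IL-17A alone, with a log2 fold change of 3.37 (SE 0.28, adjusted p = 1.4e-05). More cells with the transcript and more transcript per cell cannot be told apart in RNA of whole wells. The endothelial marker *Tie1* rose with DOX as well (log2 fold change 1.134, SE 0.31, adjusted p = 0.016), at values of at most 3.58. This call was lost without control 5 (adjusted p = 0.064) or DOX 4 (0.052) and with edgeR (0.072), within a range of 0.009 to 0.072 over the refits that make no use of replicate numbers. In DOX+IL-17A against IL-17A, *Tie1* was also called (1.32, SE 0.33, adjusted p = 0.017), and only leaving out IL-17A 5 ended that call (0.061, within 0.0027 to 0.061). In DOX+IL-17A against control, *Tie1* was wholly higher (log2 difference 0.867), as were 15.6% of tested genes, but was not called with limma, voom, edgeR or DESeq2. The part of endothelial, muscle and red blood cell transcripts in the results on *Edn1* was not tested.

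For *Edn1*, neither of the comparisons that add IL-17A passed the test. The log2 difference between IL-17A and control was 0.91 (95% interval 0.32 to 1.495, adjusted p = 0.96), and between DOX+IL-17A and DOX it was 0.88 (95% interval 0.32 to 1.43, adjusted p = 0.27). The IL-17A difference in the presence of DOX minus that in its absence was -0.03 (95% interval -0.84 to 0.77, adjusted p = 0.99). Groups adjacent in the order of *Edn1* levels therefore included 2 pairs, control with IL-17A and DOX with DOX+IL-17A, that did not overlap and yet did not pass a test across all genes.

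*Edn1* lies at chr13:42301476-42307990 on the plus strand (GRCm38, GENCODE), is protein-coding, and overlaps an antisense transcript, *Gm47118*, which was not analysed here. The strand setting of the read counting is not given in the sources used here, so reads of such a pair cannot be told apart. RefSeq promoters (GRCm38.p6, 250 bases before to 50 after the start) matched 4 of the 6 genes, and those of the 3 matched genes called with DOX+IL-17A are shown because these genes were higher in the same libraries. Capitals mark matches, on either strand, to TGANTCA (the AP-1 motif), ACGTG (the core of the hypoxia response motif) or GATAA (the GATA motif), and no match overlapped one of another motif. *Edn1* is shown for chr13:42301226-42301525 on the plus strand, *P2ry2* for the downstream one of its 2 listed starts at chr7:101011949-101012248 on the minus strand, and *Adora2b* for chr11:62248734-62249033 on the plus strand, each 5′ to 3′.
Edn1: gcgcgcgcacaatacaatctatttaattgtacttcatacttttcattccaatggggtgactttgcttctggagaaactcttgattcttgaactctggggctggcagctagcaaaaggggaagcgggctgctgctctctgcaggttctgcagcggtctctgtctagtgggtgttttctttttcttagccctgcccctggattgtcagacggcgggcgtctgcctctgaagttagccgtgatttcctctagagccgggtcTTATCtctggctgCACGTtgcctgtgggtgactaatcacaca
P2ry2: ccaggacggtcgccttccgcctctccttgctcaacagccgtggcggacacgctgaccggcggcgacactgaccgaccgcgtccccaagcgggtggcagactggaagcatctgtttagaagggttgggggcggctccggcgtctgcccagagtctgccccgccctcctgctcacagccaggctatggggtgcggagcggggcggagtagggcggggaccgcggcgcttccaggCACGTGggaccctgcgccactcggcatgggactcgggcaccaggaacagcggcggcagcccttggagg
Adora2b: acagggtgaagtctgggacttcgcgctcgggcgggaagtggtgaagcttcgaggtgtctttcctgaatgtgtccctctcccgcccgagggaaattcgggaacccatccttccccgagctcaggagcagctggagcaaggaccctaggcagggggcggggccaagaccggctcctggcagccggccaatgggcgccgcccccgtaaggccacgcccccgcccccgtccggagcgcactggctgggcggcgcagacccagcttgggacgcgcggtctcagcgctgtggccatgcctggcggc

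The *Edn1* promoter held 1 match to ACGTG and 1 to GATAA, both near its 3′ end, and none to TGANTCA. That of *P2ry2* held 2 matches to ACGTG, which are both strands of a single palindrome, and none to the others, and that of *Adora2b* held 0 matches to any of the 3. The *F2r* promoter (chr13:95618417-95618716, minus strand, not shown) held 1 match to TGANTCA. Over all 32851 RefSeq promoters of this length, 7.81% held TGANTCA, 19.6% held ACGTG and 25.4% held GATAA. Only exact matches were counted, so a near match such as TGACTAA close to the 3′ end of the *Edn1* promoter was not marked. The GC content was 51.3% for *Edn1*, 71% for *P2ry2*, 70% for *Adora2b* and 68.7% for *F2r*. *P2ry6* and *F2rl1* were not matched to a promoter of this set.

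*P2ry2* encodes the P2Y2 receptor, which is activated by ATP and UTP. It was at 5.92, 11.9 and 5.66 in control replicates 1, 3 and 5 and at 11.5, 10.8, 6.01 and 8.49 in DOX replicates 1 to 4. It was at 16.4, 15.9 and 19.3 in DOX+IL-17A replicates 2, 3 and 5, and at 8.90, 11.6 and 12.6 in IL-17A replicates 2, 3 and 5. The 3 DOX+IL-17A libraries were above all 10 others, while control, DOX and IL-17A libraries overlapped. Among tested genes, DOX+IL-17A libraries were wholly above control for 15.6%, above DOX for 4.66% and above IL-17A for 16.4%. The share above all 10 was not counted. In control, replicate 3 was about as high as the upper DOX and IL-17A libraries.

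Group means of *P2ry2* were 7.84 ± 3.55 (SD, n = 3) in control, 9.21 ± 2.50 (SD, n = 4) with DOX, 11.1 ± 1.93 (SD, n = 3) with IL-17A and 17.2 ± 1.84 (SD, n = 3) with DOX+IL-17A. DOX+IL-17A was 2.19-fold above control, a log2 fold change of 1.11 (SE 0.34, adjusted p = 0.035, limma) with 3 of 3 libraries higher than every control. The neighbouring groups in this order did not pass the test: the log2 difference was 0.24 (95% interval -0.43 to 0.92) for DOX against control and 0.60 (95% interval -0.12 to 1.32, adjusted p = 0.26) for DOX+IL-17A against IL-17A, and IL-17A was not tested against DOX. DOX+IL-17A against DOX gave 0.86 (95% interval 0.19 to 1.54, adjusted p = 0.54). The call against control lay near the threshold. It was lost without control 1 (adjusted p = 0.068), control 5 (0.12), DOX 4 (0.05), DOX+IL-17A 2 (0.072), DOX+IL-17A 3 (0.072) or DOX+IL-17A 5 (0.085), within a range of 0.015 to 0.12 over the libraries left out in turn, and it was lost in a fit of only the 2 groups compared (0.13). Leaving out both control 1 and DOX 1 also ended it (0.965, adjusted p = 0.078).

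*P2ry6* encodes the P2Y6 receptor, which prefers UDP. It was at 0, 1.34 and 0.589 in control replicates 1, 3 and 5 (0, 22 and 5 reads) and at 1.127, 1.20, 1.12 and 0.537 in DOX replicates 1 to 4 (14, 11, 8 and 6 reads). It was at 2.45, 4.07 and 8.30 in DOX+IL-17A replicates 2, 3 and 5 (12, 41 and 133 reads), and at 4.06, 5.97 and 5.91 in IL-17A replicates 2, 3 and 5 (36, 38 and 72 reads). All 6 libraries with IL-17A were above all 7 without it, whether or not DOX was present. Among tested genes, 3.17% had IL-17A libraries wholly above control and 4.66% had DOX+IL-17A libraries wholly above DOX. The share with the full order was not counted. Control overlapped with DOX, and DOX+IL-17A overlapped with IL-17A.

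For *P2ry6* the DOX+IL-17A mean of 4.94 ± 3.02 (SD, n = 3) was 7.69-fold the control mean of 0.643 ± 0.671 (SD, n = 3), and the log2 fold change was 1.82 (SE 0.42, adjusted p = 0.0088, limma). The ratio of means depends on single libraries, control 3 (1.34) and DOX+IL-17A 5 (8.30), each the highest of its group. With single libraries left out, the log2 fold change was 1.43 to 2.15 (adjusted p from 0.0073 to 0.037, limma). The IL-17A mean of 5.31 ± 1.09 (SD, n = 3) was 8.26-fold that of control, and the log2 difference of 2.01 (95% interval 1.12 to 2.90) did not pass the test across all genes (adjusted p = 0.26). DOX+IL-17A against DOX gave 1.47 (95% interval 0.63 to 2.30, adjusted p = 0.21), and DOX alone against control gave 0.35 (95% interval -0.48 to 1.18, adjusted p = 0.54). The IL-17A difference with DOX minus that in its absence was -0.54 (95% interval -1.76 to 0.68, adjusted p = 0.9). Control had few reads, and the size of the difference depended on the pseudocount, with a log2 fold change of 3.27 (adjusted p = 0.016) for DOX+IL-17A against control at a pseudocount of 0.1. In a fit of only the 2 groups compared it was not called (adjusted p = 0.07, within 0.0022 to 0.07 over the ways of testing). *Gm44545*, a transcript of unsettled status in the annotation, overlaps *P2ry6* on the other strand and was not analysed here.

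*Adora2b* encodes the A2B adenosine receptor, the adenosine receptor with the lowest affinity for its ligand. It was at 0, 1.70 and 0.354 in control replicates 1, 3 and 5 (0, 28 and 3 reads) and at 1.127, 0, 1.26 and 0.984 in DOX replicates 1 to 4 (14, 0, 9 and 11 reads). It was at 2.04, 4.37 and 4.68 in DOX+IL-17A replicates 2, 3 and 5 (10, 44 and 75 reads), and at 0.451, 0.943 and 0.164 in IL-17A replicates 2, 3 and 5 (4, 6 and 2 reads). The 3 DOX+IL-17A libraries were above the other 10, and the lowest of them, DOX+IL-17A 2, came close to control 3. The share of tested genes with this order was not counted. The remaining groups overlapped at levels of 0 to 28 reads.

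The DOX+IL-17A mean of *Adora2b* was 3.70 ± 1.44 (SD, n = 3), 5.39-fold the control mean of 0.686 ± 0.8998 (SD, n = 3) and 7.12-fold the IL-17A mean of 0.519 ± 0.394 (SD, n = 3). Both ratios depend on the highest library of the lower group, control 3 (1.70) and IL-17A 3 (0.943). The log2 fold change was 1.56 (SE 0.45, adjusted p = 0.027, limma) against control and 1.61 (SE 0.45, adjusted p = 0.028) against IL-17A. With single libraries left out, it was 1.24 to 1.96 against control and 1.43 to 1.89 against IL-17A. DOX alone (mean 0.842 ± 0.573, SD, n = 4) gave 0.19 against control (95% interval -0.71 to 1.09), IL-17A alone gave -0.05 (95% interval -1.01 to 0.91), and DOX+IL-17A against DOX gave 1.37 (95% interval 0.47 to 2.26, adjusted p = 0.32). The IL-17A difference with DOX minus that in its absence was 1.42 (95% interval 0.11 to 2.73), which did not pass the test across all genes (adjusted p = 0.9). Both calls were sensitive to the test. On the recovered reads neither comparison was called with voom, edgeR or DESeq2 (adjusted p from 0.06 to 0.19), and the log2 fold changes there were larger, 2.31 to 2.92 against control and 2.89 to 3.23 against IL-17A. Both calls were also lost with a pseudocount of 0.1 (adjusted p = 0.082 and 0.13), and the one against control in a fit of only the groups compared (0.097), within 0.02 to 0.19 against control and 0.018 to 0.14 against IL-17A over these ways of testing.

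Single libraries also decided the calls of *Adora2b*. The call against control was lost without control 1 (adjusted p = 0.077), control 5 (0.083), DOX+IL-17A 3 (0.087) or DOX+IL-17A 5 (0.079), within a range of 0.013 to 0.087 over the libraries left out. The call against IL-17A was lost without DOX+IL-17A 3 (0.092), DOX+IL-17A 5 (0.082), IL-17A 2 (0.067), IL-17A 3 (0.053) or IL-17A 5 (0.098), within a range of 0.014 to 0.098. With control 1 and DOX 1 both left out, 2 of the 6 genes (*Edn1* and *P2ry6*) were called as higher with DOX+IL-17A than in control, and *Adora2b* was not (1.24, adjusted p = 0.087).

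Of the 5 listed leukocyte markers, *Ptprc* was high in the same libraries as *P2ry2* and *Adora2b*, and the most abundant one, *Csf1r*, was not. *Ptprc* was at 1.52, 0.0609 and 0.472 in control, between 0.644 and 1.42 with DOX, at 2.45, 3.57 and 2.996 with DOX+IL-17A and between 0 and 0.314 with IL-17A. *Csf1r* was at 14.1 to 16.7 in control, 16.6 to 35.0 with DOX, 2.48 to 9.55 with DOX+IL-17A and 2.14 to 7.07 with IL-17A. *Ptprc* libraries with DOX+IL-17A were above the other 10, and those of *Csf1r* lay wholly below control and DOX. The shares of tested genes with these orders were not counted.

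The remaining 3 leukocyte markers differed from each other. *Cd68* was at 0 to 6.27 in control, 9.09 to 17.96 with DOX, 6.16 to 6.87 with DOX+IL-17A and 4.68 to 13.1 with IL-17A, and *Itgam*, which was not tested, at most 1.42. With DOX, *Cd68* was called (log2 fold change 2.01, adjusted p = 0.016), at 1.14 without control 1 (adjusted p = 0.047), but not with control 1 and DOX 1 both left out (1.07, adjusted p = 0.096), voom (0.056) or edgeR (0.075), within a range of 0.0049 to 0.096. *S100a8* was at 0 to 1.52 in control, 0.280 to 12.5 with DOX, 4.17 to 5.56 with DOX+IL-17A and 0.225 to 1.73 with IL-17A. Its call in DOX+IL-17A against control (1.98, adjusted p = 0.047) was lost without control 3 (0.092), control 5 (0.14), DOX 2 (0.059), DOX 4 (0.058), DOX+IL-17A 2 (0.1), 3 (0.095) or 5 (0.11), or IL-17A 2 (0.051), 3 (0.058) or 5 (0.052), and with voom (0.057) and edgeR (0.094), within a range of 0.0046 to 0.14.

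Against control with DOX+IL-17A, *Ptprc* had a log2 fold change of 1.33 (SE 0.37, adjusted p = 0.022, limma) and *Csf1r* a log2 difference of -1.195 (95% interval -2.17 to -0.22, adjusted p = 0.084). The *Ptprc* call was lost without control 3 (adjusted p = 0.088), control 5 (0.069) or DOX+IL-17A 3 (0.07) and with edgeR (0.16), DESeq2 (0.085), a pseudocount of 0.1 (0.061) or only the groups compared (0.11), within a range of 0.0066 to 0.16 over all refits. Against IL-17A, *Ptprc* was called as well (1.76, SE 0.37, adjusted p = 0.0074), and this call was kept in every refit (adjusted p from 0.0023 to 0.038). These markers were named after their values were seen, and the part of leukocyte transcripts in the results on *P2ry2*, *P2ry6* and *Adora2b* was not tested.

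Of 5 tested fibroblast and mural markers, 1, *Dcn*, was called with limma, as higher with DOX+IL-17A than in control (6.95% of all tested genes) and than with IL-17A (4.92%). It was at 0.169, 0.304 and 0.236 in control, at 2.58, 0.438, 1.54 and 0.715 with DOX, at 1.43, 2.38 and 2.43 with DOX+IL-17A and at 0.113, 0 and 0.0820 with IL-17A. The DOX+IL-17A libraries were wholly above control and IL-17A (as for 15.6% and 16.4% of tested genes) and overlapped with DOX. The log2 fold change was 1.302 (SE 0.37, adjusted p = 0.026) against control and 1.52 (SE 0.37, adjusted p = 0.016) against IL-17A. The call against control was lost without control 5 (0.068), DOX+IL-17A 3 (0.074) or DOX+IL-17A 5 (0.065) and with only the groups compared (0.08), within 0.019 to 0.08, and that against IL-17A without DOX+IL-17A 3 (0.05) or IL-17A 3 (0.059), within 0.0041 to 0.059.

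The 4 other fibroblast and mural markers were not called with limma in any comparison. *Pdgfra* was at 15.4 to 30.1 in control, 8.39 to 14.004 with DOX, 5.86 to 14.7 with DOX+IL-17A and 17.3 to 24.8 with IL-17A, so that both groups with DOX lay wholly below both without it. The share of tested genes with this order was not counted. *Pdgfra* did not pass the test (log2 difference -0.96, 95% interval -1.67 to -0.24, adjusted p = 0.053 with DOX, and -1.04, 95% interval -1.81 to -0.28, adjusted p = 0.057 with DOX+IL-17A). It was called as lower with DOX by voom (0.04), edgeR (0.041) and DESeq2 (0.016), and with DOX+IL-17A by voom (0.044) and DESeq2 (0.029) but not edgeR (0.061). *Col1a1*, *Col1a2* and *Acta2* had DOX+IL-17A libraries within the range of control, and none of these tools called them in either comparison.

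Of 2 tested platelet markers, 1, *Ppbp*, was called as higher with DOX (9.15% of all tested genes), at 2.20, 4.38 and 2.48 in control and at 12.9, 15.9, 7.69 and 4.47 with DOX (log2 fold change 1.39, SE 0.42, adjusted p = 0.027). This call was lost without control 1 (0.063), control 5 (0.083), DOX 1 (0.072), DOX 2 (0.081) or both control 1 and DOX 1 (0.13), and with voom (0.081), within 0.0066 to 0.13. The other, *Itga2b*, was at 0.169 to 2.83 in control and 0.328 to 2.94 with DOX. *Dcn* and *Ppbp* were named after their values were seen, and the part of fibroblast and platelet transcripts in the results on the 6 genes was not tested.

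*F2r* encodes PAR1, the thrombin receptor. It was at 38.6, 124 and 67.5 in control replicates 1, 3 and 5 and at 99.3, 138, 77.7 and 74.0 in DOX replicates 1 to 4. It was at 174, 130 and 60.2 in DOX+IL-17A replicates 2, 3 and 5, and at 138, 157 and 42.2 in IL-17A replicates 2, 3 and 5. Libraries of one group differed from each other by up to 3.71-fold (IL-17A), and all 4 groups overlapped. The means of 76.9 ± 43.7 (SD, n = 3) in control, 97.2 ± 29.2 (SD, n = 4) with DOX, 112 ± 61.4 (SD, n = 3) with IL-17A and 121 ± 57.6 (SD, n = 3) with DOX+IL-17A did not differ beyond this spread. The log2 difference was 0.45 (95% interval -0.55 to 1.44, adjusted p = 0.51, limma) for DOX and 0.68 (95% interval -0.38 to 1.74, adjusted p = 0.37) for DOX+IL-17A, both against control. IL-17A was not tested against DOX.

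The within-group SD of *F2r* on the log2 scale, 0.76, was larger than those of the other 5 genes, which ranged from 0.24 for *F2rl1* to 0.55 for *Adora2b*. Its lowest libraries were control 1, DOX+IL-17A 5 and IL-17A 5, and of 12319 tested genes 1549 (12.6%) had these same 3 libraries lowest in their groups, while 1356 (11%) had them highest. Among the 77 tested genes of the pathway lists, 15 had them lowest and 7 had them highest. *Plau*, encoding the protease urokinase, was one of them, at 9.14 in control 1, 17.9 in DOX+IL-17A 5 and 9.93 in IL-17A 5, against 20.4 to 84.2 in the other libraries of those groups. *Ccn1* and *Ccn2*, known targets of RhoA signaling listed under their older symbols *Cyr61* and *Ctgf*, were others, and both were also highest in DOX 2 among DOX libraries, at 97.0 and 496. *F2r* was highest in DOX 2 in that group as well. The 2 other early target genes of the 11 tested with this order, *Nr4a1* and *Per1*, were instead lowest in DOX 2 among DOX libraries, at 0.876 and 1.75. *Plau*, *Ccn1* and *Ccn2* were chosen after their values were seen, and the cause of the shared order was not tested.

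**Figure D2:**
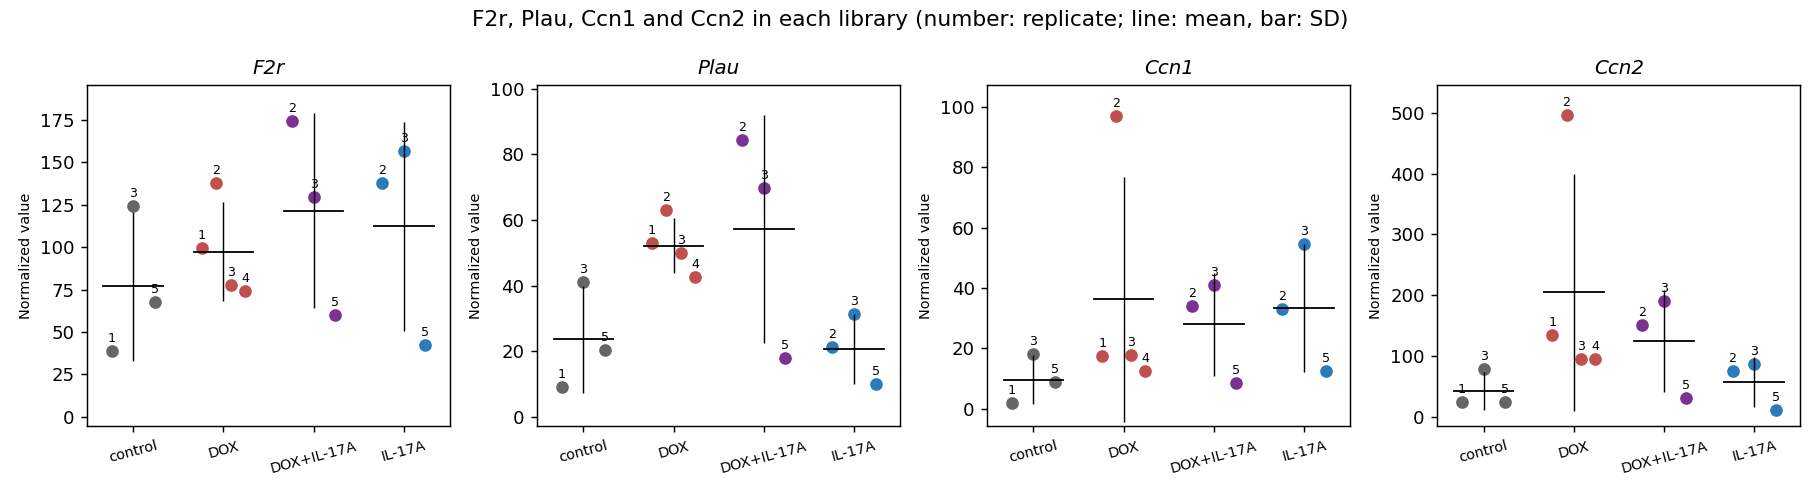
Normalized value (linear axis) of *F2r*, *Plau*, *Ccn1* and *Ccn2* in the 13 libraries, with points numbered by replicate, group means as lines and SD as bars. Control 1, DOX+IL-17A 5 and IL-17A 5 were lowest in their groups for all 4 genes, and DOX 2 was highest among DOX libraries.

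*F2rl1* encodes PAR2, which trypsin-like proteases such as matriptase activate. It was at 45.5, 33.1 and 41.6 in control replicates 1, 3 and 5 and at 35.0, 26.9, 20.4 and 27.5 in DOX replicates 1 to 4. It was at 29.9, 35.8 and 26.7 in DOX+IL-17A replicates 2, 3 and 5, and at 24.3, 30.7 and 30.4 in IL-17A replicates 2, 3 and 5. IL-17A libraries were wholly below control, as for 2.87% of tested genes, and the other treated groups each overlapped with control. The means were 40.1 ± 6.33 (SD, n = 3) in control, 30.8 ± 4.64 (SD, n = 3) with DOX+IL-17A, 28.5 ± 3.59 (SD, n = 3) with IL-17A and 27.5 ± 5.97 (SD, n = 4) with DOX. None of the differences passed the test: the log2 difference from control was -0.54 (95% interval -1.04 to -0.05, adjusted p = 0.11, limma) with DOX, -0.37 (95% interval -0.90 to 0.17, adjusted p = 0.33) with DOX+IL-17A and -0.47 (95% interval -1.01 to 0.06, adjusted p = 0.96) with IL-17A. DOX+IL-17A differed by 0.175 from DOX (95% interval -0.32 to 0.67) and by 0.11 from IL-17A (95% interval -0.42 to 0.64) on the log2 scale. Neither passed the test, and IL-17A was not tested against DOX.

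**Figure D3:**
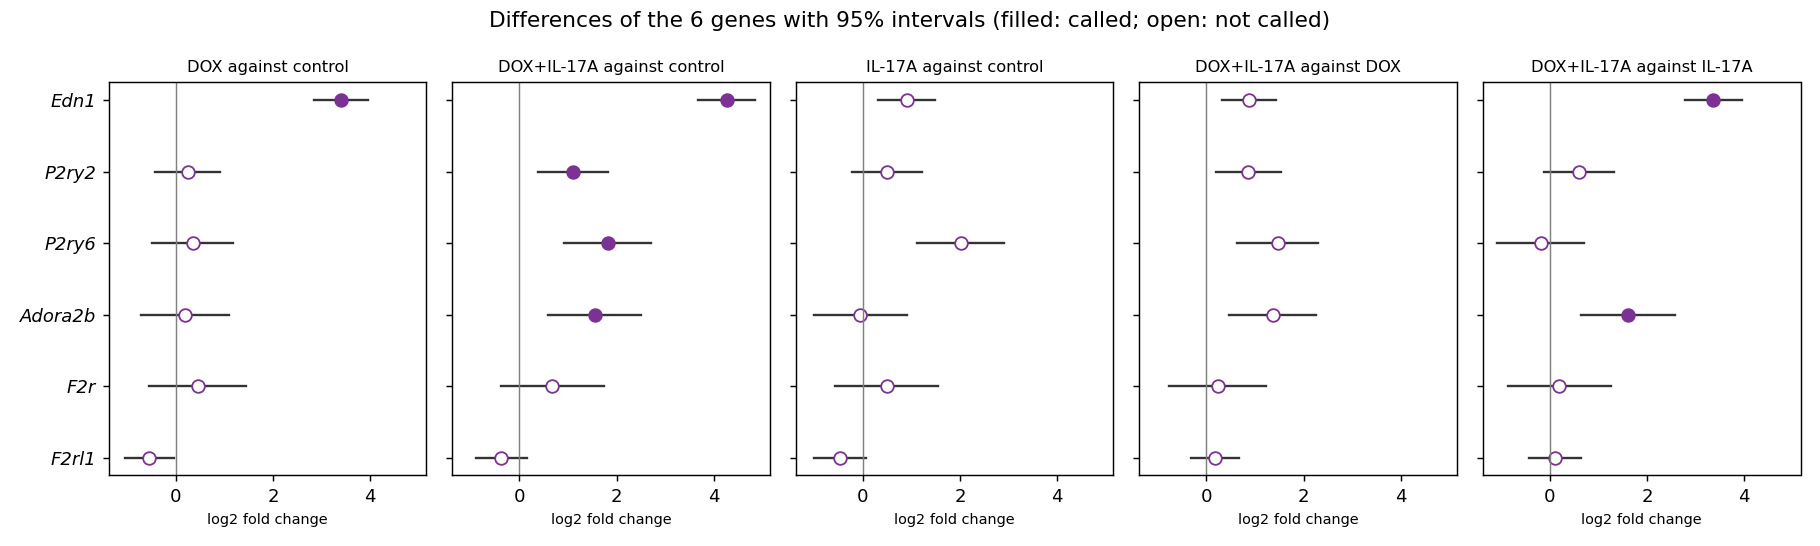
Difference on the log2(value + 1) scale for the 6 genes in 5 comparisons, with points for the estimate and lines for its 95% interval. Filled points were called, which holds for *Edn1* in 3 comparisons, from 3.37 to 4.27, for *Adora2b* in 2, and for *P2ry2* and *P2ry6* in DOX+IL-17A against control.

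The 6 genes were set side by side across the comparisons, which share libraries and are not independent of each other. Because the 6 genes were chosen with earlier results known, their counts and medians beside those of all genes are not independent evidence. The median log2 fold change of the 6 genes was 0.30 with DOX, 1.33 with DOX+IL-17A and 0.50 with IL-17A against control, while the medians over all tested genes were 0.09, 0.04 and 0.02. In DOX+IL-17A against IL-17A, 2 of the 6 genes (*Edn1* and *Adora2b*) were called as higher, against 4.92% of all tested genes, and 3 (*Edn1*, *P2ry2* and *Adora2b*) did not overlap between groups, against 16.4%. In DOX+IL-17A against control, the 4 called genes were also those whose groups did not overlap (15.6% of tested genes were wholly higher).

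IL-17A added to DOX gave 0 called genes of 6 with limma, where 0.438% of all tested genes were called in either direction. At an unadjusted p under 0.05 there were 4 of 6, against 6.35% of all tested genes, and voom, edgeR and DESeq2 called 0. These 4, *Edn1*, *P2ry2*, *P2ry6* and *Adora2b*, had DOX+IL-17A libraries wholly above DOX libraries (4.66% of all tested genes), and the median log2 difference of the 6 genes was 0.87, against -0.03 over all tested genes. The choice of the 6 genes with earlier results known bears on these shares, which are not independent evidence. IL-17A alone against control gave 0 called genes of 6 with limma and the 3 other tests (2 at an unadjusted p under 0.05, against 3.08% of all tested genes), and 0.00812% of all tested genes, which is 1 gene, the ETS factor *Ehf*, named after its values were seen (log2 fold change 2.22, adjusted p = 0.049). *Ehf* lost this call when any library except control 1 was left out (adjusted p from 0.067 to 0.27), with voom (0.062), edgeR (0.06), library size scaling (0.06), no filter (0.053) and a pseudocount of 0.1 (0.055), and in a fit of only the groups compared (0.99), within a range of 4.5e-07 to 0.99. *Edn1* and *P2ry6* had IL-17A libraries wholly above control, as 3.17% of all tested genes did. When the IL-17A difference in the absence of DOX was subtracted from that in its presence, 0 of 6 genes were called with any of these tests (1 at an unadjusted p under 0.05, *Adora2b*, against 4.51% of all tested genes) and 0% of all tested genes with limma (556 at an unadjusted p under 0.05, and 18 called with DESeq2).

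By position, 2 pairs of the 6 genes are neighbours. *P2ry6* (chr7:100937630-100974649) and *P2ry2* (chr7:100996568-101012866) lie on the minus strand with 21918 bases and 0 protein-coding genes between them. *F2rl1* (chr13:95511732-95525227) and *F2r* (chr13:95601803-95618487) lie on the minus strand with 76575 bases and 0 protein-coding genes between them, and *Adora2b* lies at chr11:62248984-62266453 on the plus strand. With IL-17A alone, *P2ry6* was at 4.06 to 5.97, wholly above control, while *P2ry2* overlapped with control. Neither gene passed the test there (adjusted p = 0.26 for *P2ry6* and 0.96 for *P2ry2*, limma), and the difference between them was not tested.

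For each gene whose group means spanned more than 1 on the log2 scale, the 3 most similar genes were sought among 9490 genes with a mean value of at least 5, by the root mean square difference of centred log2 values over 13 libraries. *Bcl2l15* (0.46), *Cfb* (0.55) and *Icam1* (0.62) were nearest to *Edn1*, whose own SD was 1.73. *Bcl2l15* had means of 8.27 in control, 77.8 with DOX, 141 with DOX+IL-17A and 17.3 with IL-17A. *Metrnl* (0.31), *Phb* (0.32) and *Smpdl3b* (0.32) were nearest to *P2ry2* (SD 0.50). *Slc39a4* (0.48), *Pik3cd* (0.50) and *Dhrs1* (0.53) were nearest to *P2ry6* (SD 0.95). *Slc39a4* had means of 40.6 in control, 57.7 with DOX, 101 with DOX+IL-17A and 93.4 with IL-17A. *Dhrs1* had means of 59.5 in control, 60.7 with DOX, 170 with DOX+IL-17A and 142 with IL-17A. *Mirt1* (0.46), *Znhit3* (0.47) and *Akap12* (0.47) were nearest to *Adora2b* (SD 0.79). The nearest, *Mirt1*, had means of 14.9 in control, 18.7 with DOX, 32.7 with DOX+IL-17A and 15.55 with IL-17A. *Akap12*, a scaffold of protein kinase A, had means of 57.8 in control, 104 with DOX, 182 with DOX+IL-17A and 78.0 with IL-17A. Its log2 fold change with DOX alone was 0.83, against 0.19 for *Adora2b*.

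The other genes of these pathways were taken from lists of 137 genes, of which 84 were listed in the table and 77 were tested. With DOX, 4 were called as higher and 8 as lower than control, where 9.15% of all tested genes were higher and 6.18% lower, and the median log2 fold change of the 77 was 0.13 (0.09 over all tested genes). With DOX+IL-17A, 4 were called as higher and 5 as lower than control, where 6.95% of all tested genes were higher and 5.95% lower, and the median was 0.09 (0.04 over all). With control 1 and DOX 1 both left out, 3 were higher and 6 lower with DOX, and 2 higher and 4 lower with DOX+IL-17A. Over the other refits there were 3 to 12 higher and 4 to 9 lower with DOX, and 1 to 7 higher and 3 to 6 lower with DOX+IL-17A. For IL-17A alone, and for its addition to DOX, 0 of the 77 were called with limma, voom, edgeR or DESeq2, and 8 and 5 had an unadjusted p under 0.05, where 3.08% and 6.35% of all tested genes did.

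Among receptors, *P2ry12*, *P2rx4*, *P2rx6* and *P2rx7* were listed, and the other P2Y, P2X, adenosine and protease-activated receptors and the endothelin receptors *Ednra* and *Ednrb* were not analysed here. *P2rx4*, an ATP-gated channel, was at 9.30 to 10.7 in control, 4.02 to 7.34 with DOX, 2.56 to 7.36 with DOX+IL-17A and 7.38 to 11.2 with IL-17A. Both groups with DOX lay wholly below both groups without it, an order whose share among tested genes was not counted. The log2 difference from control was -0.67 with DOX (95% interval -1.39 to 0.05, adjusted p = 0.17, limma). With DOX+IL-17A it was -0.90 (95% interval -1.67 to -0.13, adjusted p = 0.098), and neither passed the test. Voom called the latter (-1.28, adjusted p = 0.046), while edgeR (0.14) and DESeq2 (0.088) did not. *P2ry12* was at 0 in control and at 1.046, 1.75, 1.26 and 0 with DOX, which DESeq2 called (adjusted p = 0.028) and limma (0.097), voom (0.17) and edgeR (0.05) did not. *P2rx7* was at or under 2.88 in all libraries and *P2rx6*, which did not pass the filter, at or under 1.096. *Ece1* and *Ece2*, the enzymes that process big endothelin, were not called: *Ece2* was at 6.15 to 11.2 in control and 13.4 to 18.3 with DOX (log2 difference 0.79, 95% interval 0.16 to 1.41, adjusted p = 0.069), and *Ece1* had a log2 difference of 0.85 (95% interval -0.02 to 1.71, adjusted p = 0.14).

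**Figure D4:**
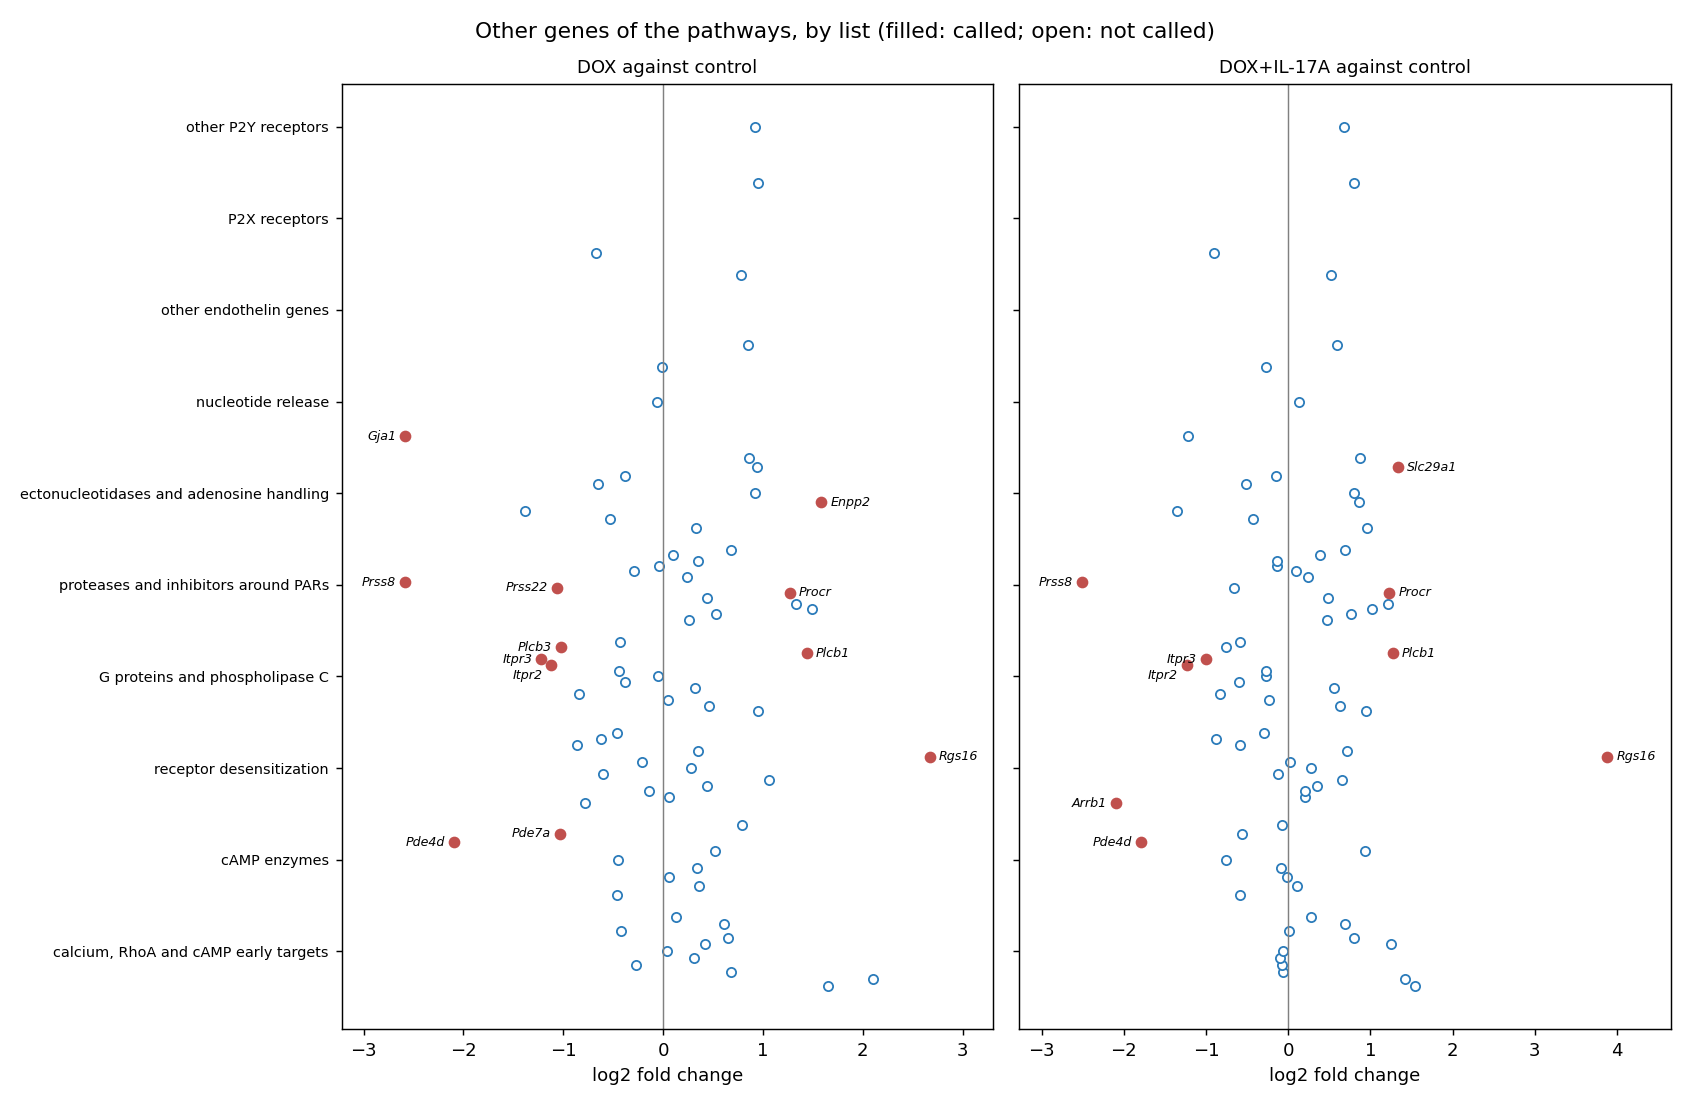
Log2 fold change against control of the tested genes of each pathway list with DOX (left) and DOX+IL-17A (right). Filled, named points were called, 12 in the left panel and 9 in the right one, and *Rgs16* lay farthest to the right at 2.67 and 3.88.

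Among genes that release or turn over nucleotides, *Gja1*, encoding the channel protein connexin 43, fell with DOX from a control range of 31.4 to 140 to a range of 5.04 to 12.4 (log2 fold change -2.59, SE 0.48, adjusted p = 0.0019, limma; -1.997 without control 1, adjusted p = 0.004), and was the only one of 3 tested release genes called, where 6.18% of all tested genes were called as lower. With DOX+IL-17A, *Gja1* was at 18.8 to 37.2 and overlapped with control. In that comparison 0 of the 3 release genes were called with limma, voom or edgeR, and 1 with DESeq2. Of 9 tested genes of ectonucleotidases and adenosine handling, 1 was called as higher with DOX (9.15% of all tested genes) and 1 with DOX+IL-17A (6.95%), a share near that over all genes. *Enpp2*, the enzyme autotaxin, went from 3.72 to 14.03 in control to 17.3 to 25.0 with DOX (log2 fold change 1.58, SE 0.38, adjusted p = 0.0085), and was not called with control 1 and DOX 1 both left out (1.18, adjusted p = 0.061, within 0.0019 to 0.061 over all refits). *Slc29a1*, a nucleoside transporter that carries adenosine, went from 10.8 to 25.3 in control to 43.3 to 50.7 with DOX+IL-17A (1.33, SE 0.28, adjusted p = 0.0057). Its call was lost without control 1, where the log2 fold change of 0.99 was under the 2-fold threshold (adjusted p = 0.008), without both control 1 and DOX 1 (0.99, adjusted p = 0.012), and in a fit of only the groups compared (adjusted p = 0.061, within 0.00025 to 0.061).

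Of 14 tested proteases and inhibitors that act around the protease-activated receptors, 1 was called as higher and 2 as lower with DOX (9.15% and 6.18% of all tested genes), and 1 as higher and 1 as lower with DOX+IL-17A (6.95% and 5.95%). *Prss8*, the membrane protease prostasin, was at 17.2 to 20.47 in control, 1.88 to 3.22 with DOX and 1.23 to 5.49 with DOX+IL-17A (log2 fold changes -2.59, adjusted p = 0.00041, and -2.51, adjusted p = 0.0011). *Procr*, the protein C receptor, rose in both (1.27, adjusted p = 0.0023, and 1.23, adjusted p = 0.0053), but without control 1 both were under the 2-fold threshold (0.98, adjusted p = 0.004, and 0.94, adjusted p = 0.0077), and with DOX+IL-17A it was also not called without both control 1 and DOX 1 (0.94, adjusted p = 0.012) or in a fit of only the groups compared (0.059, within 0.00026 to 0.059). *Prss22*, encoding tryptase epsilon, was called with DOX close to both thresholds (-1.07, SE 0.36, adjusted p = 0.044). It lost the call without control 3 (adjusted p = 0.15), control 5 (0.12), DOX 1 (0.086), DOX 3 (0.1), DOX 4 (0.094), DOX+IL-17A 3 (0.055), IL-17A 2 (0.055) or IL-17A 3 (0.057), under library size scaling (0.094) and with only the groups compared (0.059), within 0.0077 to 0.15.

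Among 13 tested genes of G proteins, phospholipase C and calcium release, 1 was called as higher and 3 as lower with DOX (9.15% and 6.18% of all tested genes), and 1 as higher and 2 as lower with DOX+IL-17A (6.95% and 5.95%). The calcium release channel genes *Itpr2* and *Itpr3* fell in both, with log2 fold changes of -1.12 and -1.22 with DOX and -1.23 and -1.003 with DOX+IL-17A (adjusted p between 0.001 and 0.0067, limma). With DOX+IL-17A, *Itpr3* was at the 2-fold threshold and was under it without control 1 (-0.86, adjusted p = 0.011), DOX+IL-17A 5 (-0.94, adjusted p = 0.023) or both control 1 and DOX 1 (-0.86, adjusted p = 0.0079), under library size scaling (-0.83) and, by its adjusted p of 0.051, with only the groups compared (0.00049 to 0.051 over all refits). Under library size scaling *Itpr2* with DOX was under the threshold as well (-0.94). *Plcb3*, a phospholipase C, was at 150, 63.7 and 68.6 in control replicates 1, 3 and 5 and at 38.4 to 53.8 with DOX, and its call with DOX (-1.02, adjusted p = 0.026) rested on control 1. It was -0.63 without control 1 (adjusted p = 0.096) and -0.60 with control 1 and DOX 1 both left out (0.16), and the call was also lost without DOX 1 (0.057), DOX 3 (0.065) or DOX 4 (0.061), with voom (-0.99) and under library size scaling (-0.85), within 0.0039 to 0.16. *Plcb1*, another, was at 0 in all control libraries and at 0.876 to 2.94 with DOX, and rose with DOX (adjusted p = 0.0068) and DOX+IL-17A (adjusted p = 0.022). The latter call was lost without control 5 (0.062), DOX+IL-17A 2 (0.061) or DOX+IL-17A 5 (0.06) and with only the groups compared (0.083), within 0.001 to 0.083. Its means with DOX and DOX+IL-17A were 5.19-fold and 4.16-fold the mean value of 3 reads per control library. As control had 0 reads, these are lower bounds for the fold over control.

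Among 13 tested genes of receptor desensitization, 1 was called as higher with DOX (9.15% of all tested genes), and 1 as higher and 1 as lower with DOX+IL-17A (6.95% and 5.95%), shares near those over all genes. *Rgs16*, which speeds the turn-off of Gi and Gq proteins, was at 1.01, 7.18 and 6.25 in control, at 18.1 to 40.9 with DOX, at 53.8 to 96.0 with DOX+IL-17A and at 3.61 to 23.5 with IL-17A. Its log2 fold change was 2.67 (SE 0.55, adjusted p = 0.0036, limma) with DOX and 3.88 (SE 0.59, adjusted p = 0.00065) with DOX+IL-17A. Without control 1, its lowest library, these were 2.03 (adjusted p = 0.0083) and 3.24 (0.00056), the lowest of a range of 2.03 to 3.04 with DOX and 3.24 to 4.27 with DOX+IL-17A, and both calls were kept in every refit. *Arrb1*, a beta-arrestin, was at 4.23 to 7.43 in control and at 0.312 to 1.39 with DOX+IL-17A (-2.10, SE 0.53, adjusted p = 0.015), and was not called without control 5 (adjusted p = 0.053) or DOX+IL-17A 2 (0.052), within 0.00056 to 0.053. Of 9 tested adenylyl cyclases and phosphodiesterases, 2 were called as lower with DOX (6.18% of all tested genes) and 1 with DOX+IL-17A (5.95%). *Pde4d* fell with DOX (-2.09, adjusted p = 0.0054) and DOX+IL-17A (-1.80, adjusted p = 0.022). The latter call was lost without control 5 (0.079), DOX+IL-17A 2 (0.084) or DOX+IL-17A 5 (0.069) and with only the groups compared (0.064), within 0.012 to 0.084. *Pde7a* was at 35.5, 18.3 and 21.7 in control replicates 1, 3 and 5 and at 9.74 to 12.2 with DOX, and was called with DOX close to both thresholds (-1.03, adjusted p = 0.04). It was -0.77 with control 1 and DOX 1 both left out (0.18), and lost the call without control 1 (0.13), control 5 (0.072), DOX 1 (0.071), DOX 2 (0.089), DOX 3 (0.072), DOX 4 (0.073) or DOX+IL-17A 3 (0.051) and under library size scaling (0.069), within 0.0098 to 0.18.

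Of 11 tested early target genes of calcium, RhoA and cyclic AMP signaling, 0 were called with limma in either comparison (2 and 0 at an unadjusted p under 0.05, against 36.5% and 32.5% of all tested genes, 0 and 0 called with voom and edgeR, and 1 and 0 with DESeq2). Over all tested genes 9.15% were called as higher and 6.18% as lower with DOX, and 6.95% and 5.95% with DOX+IL-17A.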

How the data were processed

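Total RNA of cultured 4T1-Thy1.1 cells was sequenced in 13 libraries of 4 groups. The authors made 3' mRNA libraries, aligned reads to mm10 (STAR), assigned them to genes (featureCounts) and applied TMM normalization. FastQC and Trimmomatic are named in the submitters' processing notes. The deposited values are a normalized signal per gene, and the one repeated entry, which was identical, was dropped. In every library all values (100%, tolerance 0.1) were whole multiples of the value of 1 read, which gave the reads used for filtering and for the count tests. The floor of 3 reads covers counting error only, while the intervals come from the limma fit and rest on the spread between libraries. Without molecular identifiers several reads may stem from a single molecule.

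The main test was limma (3.58.1, R 4.3.3) with trend on log2(value + 1), with the group as the only factor, all 13 libraries, and genes kept by filterByExpr of edgeR (4.0.16). The test of whether the IL-17A effect depended on DOX used adjusted p alone. Alternatives were voom, edgeR's quasi-likelihood test and DESeq2 (1.42.0) on recovered reads, library size scaling, other filters, a pseudocount of 0.1, a fit restricted to the compared groups, a block for replicate number, and each library left out. The labels do not say that replicates are separate cultures, and the authors' general statement that their data come from biological replicates does not name these libraries. The p-values therefore measure the spread between libraries, which may be technical.

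Members, lists and the rule for named genes were chosen with earlier results of these data known, so their tests are not independent evidence. Named were the 6 genes, every listed gene of the other receptor and endothelin families, up to 4 called genes with the largest change in each other list, and the 3 genes nearest in pattern. The protease list was shortened by 1 gene after the tests were run, and its counts are those of the shorter list. Libraries of a group differed by more than sampling noise (chi-square per degree of freedom 7.65 to 177).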

Additional observations from a re-analysis of the deposited data

Results flagged for a closer look

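In a group of 4 libraries, 1 value can lie far from the other 3, and chance gives about 1 such case in 20 groups. Among the named genes this held for 4 genes in the DOX group. The named genes are enough in number for chance to be expected to give such a case at this rate. *P2ry6* was at 0.537 in DOX 4 against 1.12 to 1.20 in the other 3 (6 reads against 8 to 14). *P2rx6* was at 1.046 in DOX 1, *Itpr3* at 88.9 in DOX 1 and *Plcb3* at 53.8 in DOX 2. DOX 1 was also the library with the highest sum of muscle markers (236), and the part of these transcripts in the values of *P2rx6* and *Itpr3* was not tested.

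*Itpr3* was lower than the control mean in 3 of 3 IL-17A libraries and higher than the DOX mean in 3 of 3 DOX+IL-17A libraries. The IL-17A difference with DOX minus that in its absence was 0.64 on the log2 scale, which did not pass the test across all genes (adjusted p = 0.9, limma).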

How the results depend on the processing

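Over refits of the 6 genes, 768 kept their direction and their side of the threshold, 29 kept the direction and lost the call, and 25 changed sign, all of the latter for differences that were not called. *Edn1* kept its 3 calls in every setting and with each library left out. Few reads limit the results on *P2ry6* and *Adora2b*, which had 0 to 28 reads in control.

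The number of the 6 genes called in DOX+IL-17A against control was 4, 3 with voom, edgeR, DESeq2, a pseudocount of 0.1 or the replicate block, 1 with only the groups compared, 2 with control 1 and DOX 1 both left out (chosen after seeing the data), and 2 to 4 with single libraries left out. Against IL-17A it was 2, and 1 with voom, edgeR, DESeq2 or a pseudocount of 0.1 (1 to 2 with libraries left out). Over all genes, DOX+IL-17A against control gave 1589 calls and 599 with only the groups compared, where fewer samples estimate the spread. DOX+IL-17A against IL-17A gave 1212 and 689 to 1589 with libraries left out. DOX+IL-17A against DOX gave 54, and 35 with edgeR, 93 with DESeq2, 23 with a pseudocount of 0.1, 87 with only the groups compared, 85 with control 1 and DOX 1 both left out, and 1 to 88 with libraries left out. IL-17A against control gave 1, and 0 with voom, edgeR, library size scaling, no filter, a pseudocount of 0.1 or only the groups compared, 13 with DESeq2, and 0 to 2 with libraries left out. Whether the IL-17A effect depended on DOX gave 0, 18 with DESeq2 and 0 to 1 with libraries left out. The causes were not tested.

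Signs turned as follows, and the cause was not tested. With control 1 and DOX 1 both left out, DOX against control was -0.007 for *P2ry2* and -0.215 for *Adora2b* (-0.123 to 0.595 with libraries left out). For *Adora2b*, IL-17A against control was 0.297 with a pseudocount of 0.1 (-0.365 to 0.353 with libraries left out). In DOX+IL-17A against DOX, *F2r* was -0.091 to 0.669 with libraries left out. In DOX+IL-17A against IL-17A, *P2ry6* was 0.015 with voom, and with libraries left out *P2ry6* was -0.577 to 0.137, *F2r* -0.403 to 0.625 and *F2rl1* -0.004 to 0.202. For the IL-17A difference with DOX minus that in its absence, *Edn1* was 0.016 under library size scaling (-0.171 to 0.126 with libraries left out), and *F2r* was 0.177 with control 1 and DOX 1 both left out (-0.850 to 0.178).

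The labels do not say what a replicate number marks, and the values fell short of the criterion used for pairing, that every same-number pair correlates above 0.1: deviations from the group means correlated at 0.15 over 13 same-number pairs (-0.175 to 0.491, 8 above 0.1) and at -0.04 over 50 other pairs, and 7 of 12 libraries correlated best with their own number. With the replicate block, DOX against control gave 837 higher and 540 lower genes, DOX+IL-17A against control 637 and 557, DOX+IL-17A against IL-17A 679 and 678, DOX+IL-17A against DOX 14 calls and IL-17A against control 0. With this block *P2ry2* in DOX+IL-17A against control was not called (adjusted p = 0.089), nor were *Plcb3* and *Pde7a* with DOX (0.09 and 0.13), *Itpr2* with DOX and *Itpr3* with DOX+IL-17A (-0.96 and -0.81, under the 2-fold threshold), *Plcb1* with DOX+IL-17A (0.063), *Tie1* with DOX (0.086), *Ptprc* with DOX+IL-17A (0.058) and *Ehf* with IL-17A (0.12). In the same fit, *Adora2b* in IL-17A against control was 0.069, and the IL-17A difference with DOX minus that in its absence was 0.084 for *Edn1* and 0.085 for *F2r*.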
